A study of Mus musculus with 8 samples.

Results

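Ribosome biogenesis genes were examined in the spleen of mice transgenic for HMGA1a, a chromatin protein that bends and opens DNA. The list held 46 genes and was given by symbol. For each gene, the probe set annotated to that symbol alone with the highest mean over 8 arrays stood for the gene. Of the 46 genes, 45 had such a probe set, and all 45 passed the filter on dim probe sets, among 11189 genes tested in all. Mrto4, an assembly factor of the ribosomal stalk, was covered only by a probe set that lists several symbols and has no value here.

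RNA of the spleen cells of 8 male C57/BL6 mice was hybridised, 1 array per mouse, to Affymetrix mouse arrays. The 4 groups of 2 mice were HMGA1a transgenic mice of 12 months (TG), wild type mice of 12 months (WT), TG mice of 2 months and WT mice of 2 months. By the design text the wild type mice were littermates, every TG mouse develops lymphoid tumours, and 2 months lies before and 12 months after tumours are established. The labels describe the cells as splenocytes, name no sorting step and do not name the promoter of the transgene, and the level of Hmga1 was not analysed here. Markers of B cells (Cd79a, Cd79b and Ms4a1), of T cells (Cd3d, Cd3e and Cd3g) and of macrophages (Csf1r) were present on all 8 arrays, with Cd79a between 1796 and 6092 and Cd3e between 287 and 803. The replicate 1 WT array of 2 months stood apart, with a summed signal of exocrine pancreas markers of 9953, against 444 to 660 on the other 7 arrays. For the 45 genes, the medians and counts of higher genes over both replicates are also given without it. So are the named differences that it moves by over 1.5 times. Values within replicate 1, of other probe sets and of the other ribosome biogenesis genes are given with it only. Counts without overlap are given with it only, since leaving it out leaves 1 array in its group. All values below are linear signals of probe sets, with the replicate 1 mouse of a group before its replicate 2 mouse. Differences are of log2(signal + 16), given ± SE, and are TG minus WT or 12 minus 2 months. The array medians ran from 44.9 to 49.5, and the number of arrays limits the precision. The p-values rest on the spread between mice within a group. Unless the replicate number is fitted as a block, this spread includes differences shared by mice with the same replicate number.

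Ribosomes are built in the nucleolus, where RNA polymerase I transcribes a long precursor of ribosomal RNA. Small nucleolar ribonucleoproteins (snoRNPs) guide the chemical modification of this precursor, those of the box C/D class its methylation and those of the box H/ACA class the conversion of uridine to pseudouridine. A large particle around the U3 snoRNP, the small subunit processome, begins the processing of the small subunit, and separate sets of factors assemble the large subunit. Growing and dividing lymphocytes make many ribosomes, and the transcription factor MYC is known to activate a broad set of these genes.

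The upstream sequences of the 3 genes with the largest moderated t between TG and WT mice at 12 months are shown to let the promoters be compared. They are RefSeq promoter windows of build GRCm38.p6, of which the 250 bases before the start that the table gives are shown. For Polr1b and Nop16 this start lies a little inside the annotated gene. The Polr1b window lies at chr2:129100746-129100995 on the plus strand, that of Nop16 at chr13:54590075-54590324 on the minus strand and that of Nolc1 at chr19:46075597-46075846 on the plus strand. Capitals mark the GC box GGGCGG and the core of the ZNF143 motif (ACTACA, any 2 bases, then TCCC), each on either strand.
Polr1b: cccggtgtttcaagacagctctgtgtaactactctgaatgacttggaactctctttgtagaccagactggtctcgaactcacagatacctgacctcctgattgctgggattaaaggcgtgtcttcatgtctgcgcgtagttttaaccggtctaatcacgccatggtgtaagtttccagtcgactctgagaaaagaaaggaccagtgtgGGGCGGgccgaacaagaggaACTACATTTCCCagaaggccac
Nop16: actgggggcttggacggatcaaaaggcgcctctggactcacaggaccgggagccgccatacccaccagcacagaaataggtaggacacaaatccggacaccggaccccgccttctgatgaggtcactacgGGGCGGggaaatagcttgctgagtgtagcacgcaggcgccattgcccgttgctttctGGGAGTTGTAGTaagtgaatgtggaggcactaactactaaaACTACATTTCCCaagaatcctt
Nolc1: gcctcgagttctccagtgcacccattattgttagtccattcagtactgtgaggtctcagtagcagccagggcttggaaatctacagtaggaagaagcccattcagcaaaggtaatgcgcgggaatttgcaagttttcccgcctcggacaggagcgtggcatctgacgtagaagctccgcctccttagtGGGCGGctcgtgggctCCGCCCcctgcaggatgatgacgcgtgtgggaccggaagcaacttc

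None of the 3 windows held the E-box CACGTG, the palindromic site that MYC and other factors bind. Promoter windows of 300 bases, which include the first 50 transcribed bases, were on hand for 41 of the 46 genes. An E-box lay in the windows of 7 of these 41 genes (17.1%), against 8.09% of 27025 genes of the promoter table, which includes noncoding and predicted genes. In 5 of the 7 genes (Wdr43, Utp4, Utp20, Tsr1 and Pes1) the match reached past the start, as in 12.2% of the 41 genes against 1.55% of all genes. In the other two, Imp4 and Nop2, it lay upstream, as in 4.88% of the 41 genes against 6.86% of all genes, and these stretches are shown to give the surroundings of the site, with the E-box in capitals and 15 bases on each side. They lie at chr1:34439693-34439728 and chr6:125131808-125131843, both on the plus strand.
Imp4: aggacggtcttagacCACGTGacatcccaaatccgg
Nop2: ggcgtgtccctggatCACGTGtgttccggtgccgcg

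The GC box was held by 29 of the 41 genes (70.7%) and by 38.2% of all genes. The ZNF143 core was searched after it was seen in the windows of Polr1b and Nop16, which were thus certain to be counted. It was held by 4 of the 41 (Polr1b, Nop10, Nop14 and Nop16, 9.76%) and by 2.08% of all genes. The median GC content of the windows was 58.3%, against 52.7% over all windows. These are matches of letters, described without a test. The 7 genes with an E-box had a median log2 difference of 0.38 at 12 months (TG minus WT), with 4 of 7 higher, and the 33 tested genes without one had a median of 0.30, with 30 of 33 higher. Both kinds of gene held members on either side of 0.

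TG mice were compared with WT mice at 12 months, the age of established tumours. Most of the ribosome biogenesis genes had a higher signal in the TG spleens, with 39 of 45 above 0 and a median log2 difference of 0.31, whereas 45.2% of all genes tested were above 0 and their median was -0.03. The largest differences were those of Nop58, a core protein of box C/D snoRNPs, and of Polr1b, a subunit of the catalytic core of RNA polymerase I. Their order turned without the replicate 1 WT mouse of 12 months, when Nop58 stood at 0.61 and Polr1b at 1.03. In 28 of the 45 genes the lower TG signal exceeded the higher WT signal, as in 14.3% of all genes, and in 1 of 45 (Utp4) the reverse held, as in 19.9% of all genes. In a mixture of cells, a change in the share of cells that express a gene and a change in its RNA per cell cannot be told apart. Within replicate 1 the median was 0.36, within replicate 2 it was 0.27, and 35 of the 45 genes were higher within both, as were 26.9% of all genes.

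With limma and Benjamini-Hochberg adjustment over 11189 genes, 0 of the 45 genes passed at 12 months, and 0% of all genes. The smallest adjusted p among the 45 was 0.586. With the replicate number as a block the smallest adjusted p among the 45 was 0.0795, and 0 passed, while 0.0447% of all genes did. These were 5 genes outside the list (Lgals1, higher in TG mice, and Ighv14-2, Cr2, Fcer2a and Gzma, lower), named after their values were seen because they are so few. An unadjusted p under 0.05 was reached by 8 of the 45, all higher in TG mice, where 2.59% of all genes reached it in that direction. With the block it was reached by 19 of the 45, where 7.26% of all genes did. With 2 mice a group, an exact permutation test of 1 gene cannot go below p = 0.333.

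**Figure D1:**
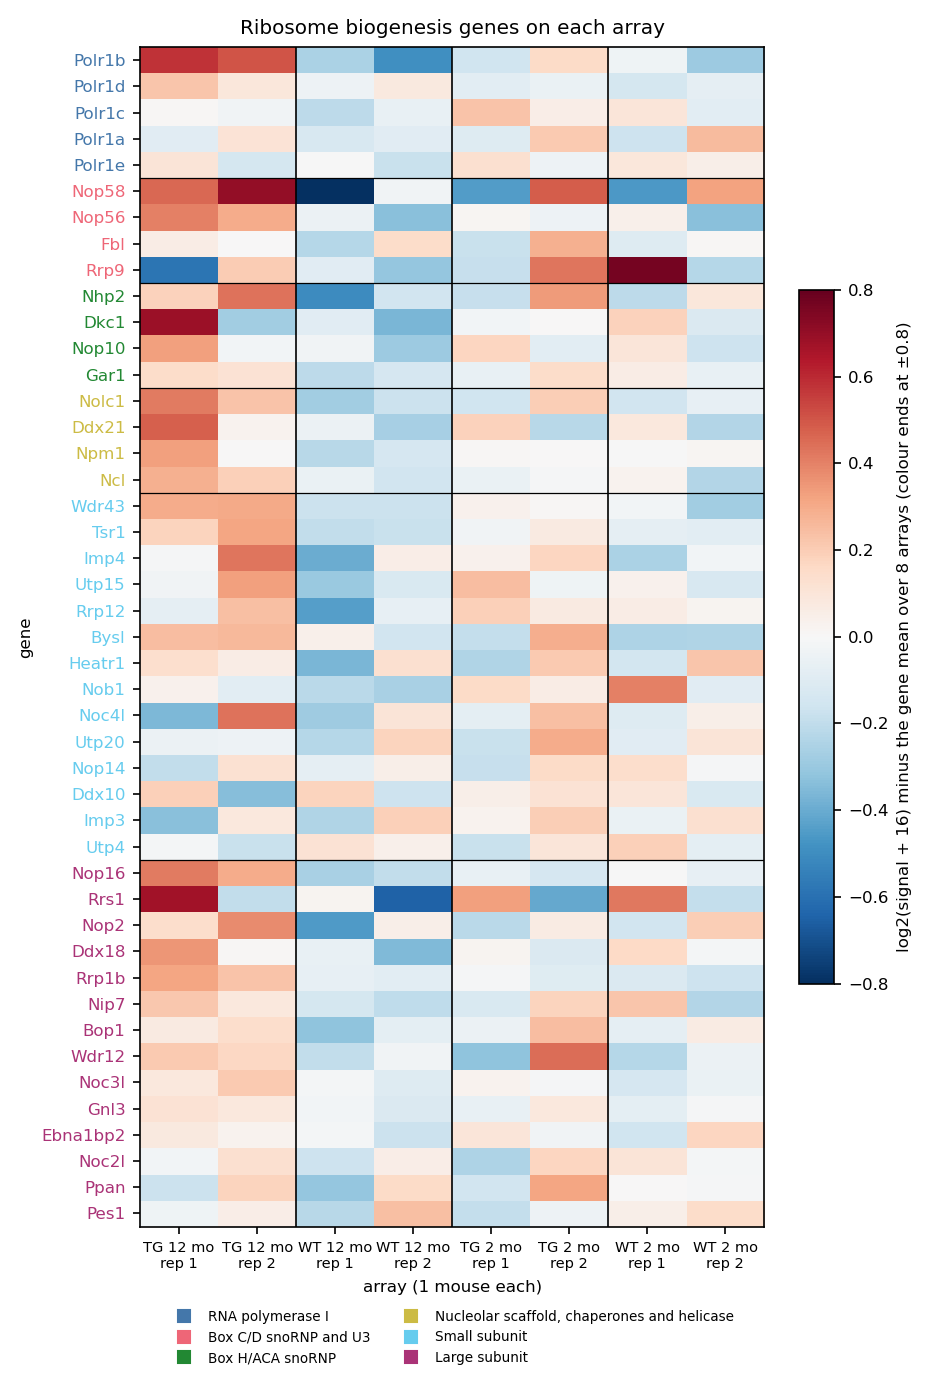
Colour shows log2(signal + 16) of each of the 45 genes (rows, grouped by role, name coloured by role) on each of the 8 arrays (columns), minus the mean of the gene over the 8 arrays. The TG columns of 12 months are mostly red and the WT columns of 12 months mostly blue, and the TG array of 2 months, replicate 2, is also red for many genes.

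**Figure D2:**
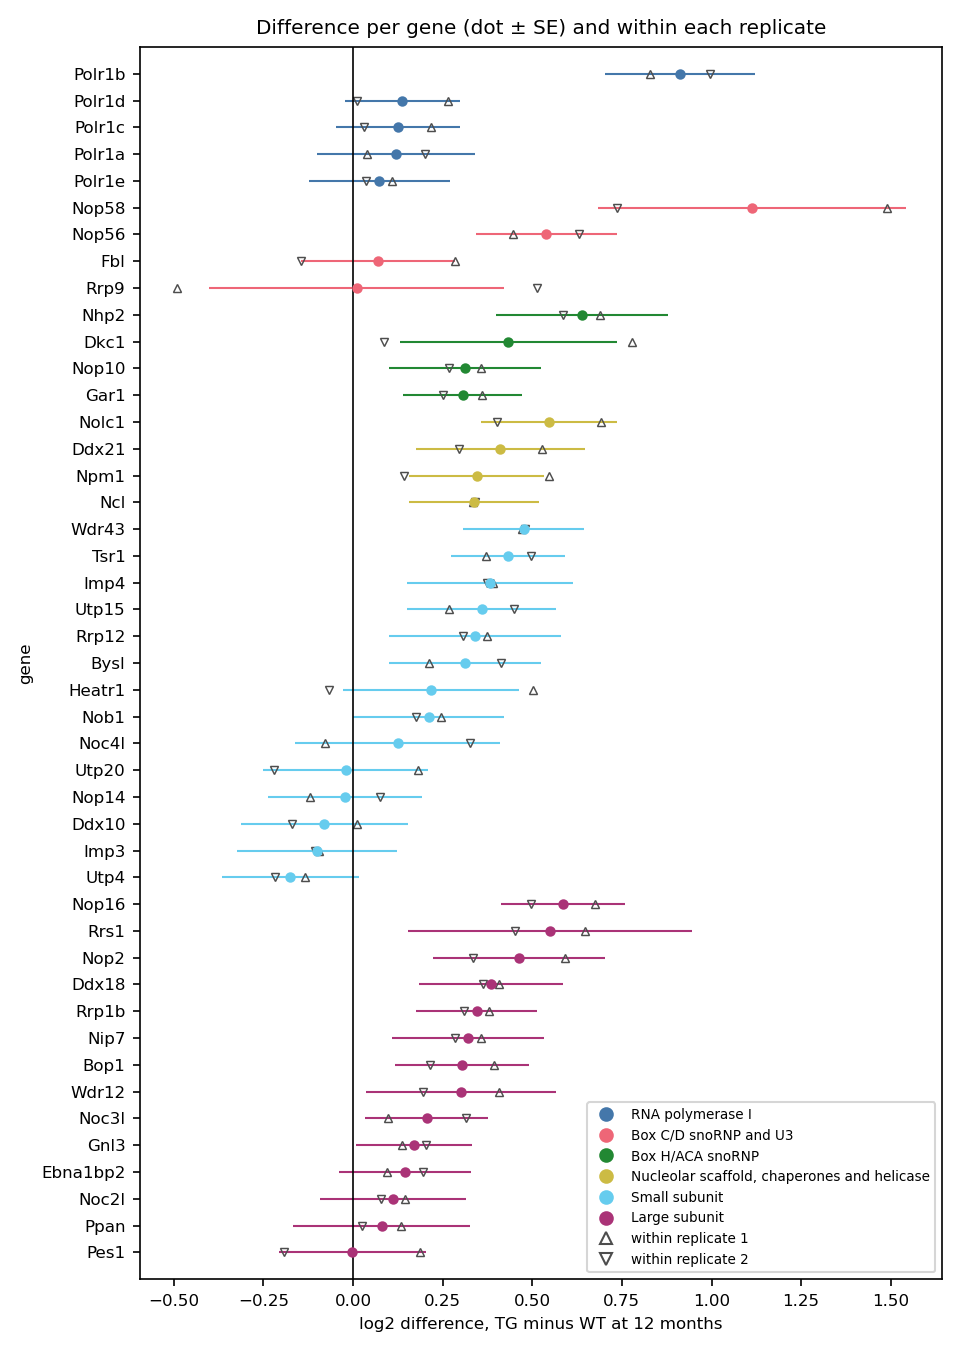
Dots give the log2 difference TG minus WT at 12 months of each of the 45 genes with its SE (2 mice per group), coloured by role, and open triangles give the difference within replicate 1 and within replicate 2. Of the 45 dots, 39 lie to the right of 0, and the 6 to the left are those of Utp4, Imp3, Ddx10, Nop14, Utp20 and Pes1.

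RNA polymerase I subunits come first in the pathway. All 5 had a positive difference at 12 months, as had 45.2% of all genes, and that of Polr1b was the largest. Polr1b had signals of 249 and 236 in TG mice, against 133 and 111 in WT mice at 12 months, a log2 difference of 0.91 ± 0.21 and 1.88-fold on that scale. At 2 months its signals were 143 and 182 in TG mice, against 157 and 129 in WT mice. The pair of TG arrays of 12 months were the highest of all 8, and the WT arrays of 12 months held the lowest, so the groups of 12 months did not overlap while those of 2 months did. Polr1d, a small subunit shared with RNA polymerase III, had 1631 and 1488 in TG mice, against 1355 and 1476 in WT mice at 12 months (0.14 ± 0.16). Polr1c, its partner in assembly, had 408 and 398 in TG mice, against 349 and 389 in WT mice (0.12 ± 0.17). These 2 subunits did not overlap between the groups of 12 months, yet their differences were smaller than their SE without the block. With the replicate block the SE was 0.11 for Polr1d and 0.13 for Polr1c. Polr1e, which helps the enzyme engage its initiation factors, had 148 and 123 in TG mice, against 136 and 119 in WT mice (0.07 ± 0.20), with overlap. The log2 difference of the largest subunit, Polr1a, was 0.12. The 4 subunits other than Polr1b thus lay between 0.07 and 0.14. Their other probe sets gave larger values, at 0.17 and 0.49 for Polr1a, 0.54 for Polr1c, 0.39, 0.45 and 0.28 for Polr1d, and 0.31 for Polr1e. Polr1b had a single probe set, and whether it differs from the others was not tested.

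Among the 4 genes of box C/D snoRNPs and the U3 particle, Nop58 and Nop56 had the larger differences and Fbl and Rrp9 the smaller. Nop58 had signals of 389 and 465 in TG mice, against 128 and 273 in WT mice at 12 months, a log2 difference of 1.11 ± 0.43. Its signals at 2 months were 200.2 and 397 in TG mice, against 199 and 352 in WT mice. On every pair of arrays of a group the replicate 2 mouse was higher, and the differences between TG and WT within replicate 1 and replicate 2 were 1.49 and 0.74. Nop56, the partner of Nop58 on the snoRNA, had 632 and 588 in TG mice, against 459 and 374 in WT mice (0.54 ± 0.20), with both TG signals on top. Fbl, which encodes the methyltransferase fibrillarin of the same particle, had 1134 and 1093 in TG mice, against 929 and 1209.7 in WT mice (0.07 ± 0.22). Rrp9, a protein particular to the U3 particle, had 29.0 and 61.7 in TG mice, against 47.3 and 38.4 in WT mice (0.01 ± 0.41). The WT arrays spanned the TG arrays for Fbl and the TG arrays spanned the WT arrays for Rrp9, the dimmest gene of this role. Within the replicates the 2 genes differed in sign, at 0.28 and -0.14 for Fbl and -0.49 and 0.51 for Rrp9.

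The genes of all 4 core proteins of box H/ACA snoRNPs had positive differences at 12 months, as had 45.2% of all genes. The median of the 4 was 0.37. Nhp2, an RNA-binding core protein, had 884 and 1054 in TG mice, against 542 and 697 in WT mice at 12 months (0.64 ± 0.24). At 2 months it had 681 and 989.6 in TG mice, against 671 and 828 in WT mice. Both groups of 12 months were thus separate, and those of 2 months overlapped. Gar1 had 591 and 579 in TG mice, against 457 and 484 in WT mice (0.31 ± 0.17), and its differences within the replicates were 0.36 and 0.25. Nop10, the smallest of the proteins, had 2776 and 2180.5 in TG mice, against 2165 and 1808 in WT mice (0.31 ± 0.21), where the lower TG signal lay just above the higher WT signal. Without the replicate 1 TG mouse the difference of Nop10 was 0.14. Dkc1, which encodes the pseudouridine synthase dyskerin, had 1328 and 672 in TG mice, against 768 and 631 in WT mice (0.43 ± 0.30). This difference rested largely on the replicate 1 TG mouse, the highest of the 8 arrays for Dkc1, and was -0.05 without it. Within replicate 1 and replicate 2 the difference of Dkc1 was 0.78 and 0.09, and its other probe sets gave 0.54 and 0.31.

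Nolc1, Ncl, Npm1 and Ddx21 encode abundant nucleolar proteins that act at several steps. In all 4, both TG signals of 12 months exceeded both WT signals, as in 14.3% of all genes. Nolc1, a phosphoprotein that shuttles snoRNPs to the nucleolus, had 558 and 489 in TG mice, against 339 and 367 in WT mice (0.55 ± 0.19). At 2 months its signals were 369.7 and 479.8 in TG mice, against 372 and 396 in WT mice. Ncl, the gene of nucleolin, had 4108 and 3846 in TG mice, against 3257 and 3033 in WT mice at 12 months (0.34 ± 0.18). The difference of Ncl was nearly equal within the replicates, at 0.33 and 0.34. Npm1, the gene of the histone and ribosome chaperone nucleophosmin, had 5646 and 4521 in TG mice, against 3858 and 4094 in WT mice (0.34 ± 0.19). Ddx21, an RNA helicase of ribosomal RNA transcription and processing, had 706 and 512 in TG mice, against 485 and 414 in WT mice (0.41 ± 0.24). For Npm1 and Ddx21 the replicate 1 TG mouse had the highest signal of all 8 arrays, and without it the difference was 0.19 for Npm1 and 0.19 for Ddx21.

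**Figure D3:**
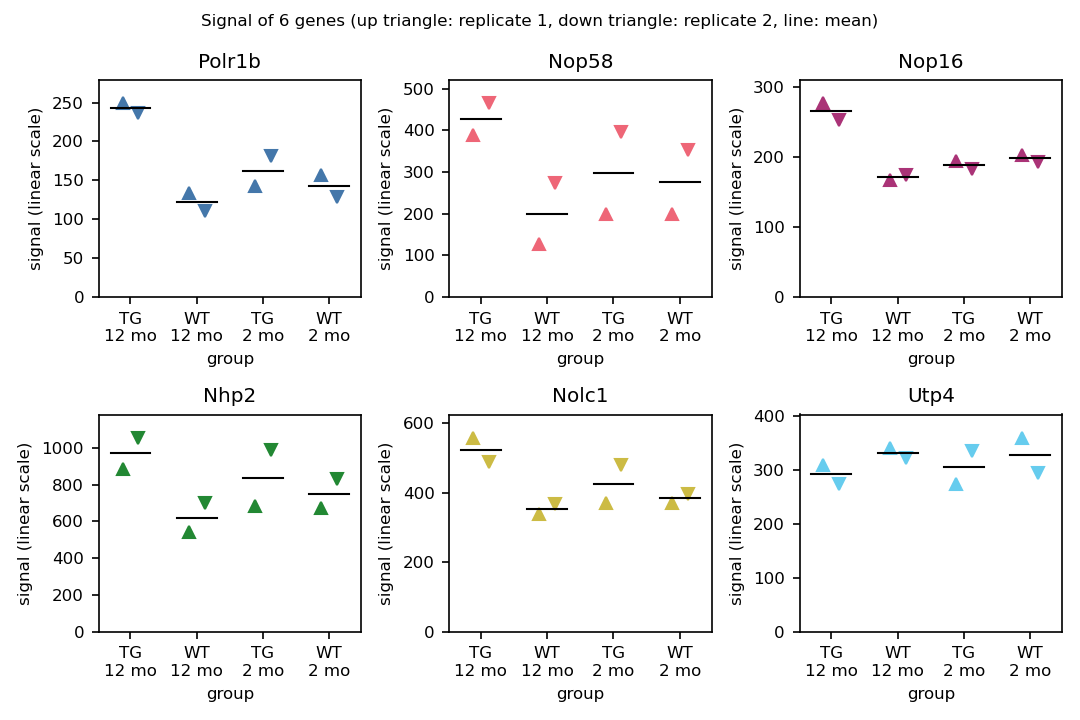
Points give the signal (linear scale, from 0) of Polr1b, Nop58, Nop16, Nhp2, Nolc1 and Utp4 on each array by group, with an up triangle for replicate 1, a down triangle for replicate 2 and a line at the mean of 2. Polr1b, Nop16 and Nolc1 are highest in TG mice of 12 months on both arrays, Nop58 and Nhp2 show a gap between replicates in every group, and Utp4 is lower in TG than in WT mice of 12 months.

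Small subunit factors were mixed in direction. Of 14 genes, 9 were higher (64.3%) and 5 lower in TG mice, beside 45.2% of all genes that were higher. The median difference at 12 months was 0.21, against -0.03 over all genes. Without overlap, 5 of the 14 lay above and 1 below, beside 14.3% and 19.9% of all genes. Wdr43, a processome protein tied to transcription of the precursor, had 563 and 566 in TG mice, against 402 and 402 in WT mice (0.48 ± 0.17). Its differences within the replicates were 0.47 and 0.48. Tsr1, a factor of late small subunit maturation, had 598 and 661 in TG mice, against 459 and 465 in WT mice (0.43 ± 0.16). Utp15, of the processome subcomplex that binds the precursor first, had 247 and 320.3 in TG mice, against 203 and 230.4 in WT mice (0.36 ± 0.21). In these 3 genes all TG signals of 12 months were above the WT signals, although Utp15 stood at 0.18 without the replicate 2 TG mouse. Utp4, which belongs to the same subcomplex as Utp15 and Wdr43, went the other way, with 309.8 and 275 in TG mice, against 341 and 323 in WT mice (-0.18 ± 0.19). Utp20 had 251 and 251 in TG mice, against 219 and 296 in WT mice (-0.02 ± 0.23), with the TG signals nearly equal and the WT signals on both sides of them.

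The remaining small subunit factors had log2 differences of 0.38 for Imp4, 0.34 for Rrp12, 0.31 for Bysl, 0.22 for Heatr1, 0.21 for Nob1 and 0.12 for Noc4l. Imp3, which joins Imp4 in the U3 particle, stood at -0.10, and the helicase Ddx10 at -0.08 and Nop14 at -0.02. Imp4 and Imp3 thus had opposite signs, as did Utp15 and Utp4. Whether such partners differ from each other was not tested. Nob1, the endonuclease that makes the end of the mature small subunit RNA, was higher on both TG arrays of 12 months.

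For large subunit factors, 13 of 14 differences at 12 months were positive, beside 45.2% of all genes, and the median of the 14 was 0.30. Of the 13, 10 were without overlap, beside 14.3% of all genes. Nop16, a nucleolar assembly factor, had 276 and 253 in TG mice, against 167 and 175 in WT mice (0.59 ± 0.17). At 2 months it had 193 and 183 in TG mice, against 202 and 193 in WT mice. The 4 arrays of 2 months lay between the WT and the TG arrays of 12 months without overlap. Rrp1b had 275 and 257 in TG mice, against 207 and 205 in WT mice at 12 months (0.34 ± 0.17). Nop2, a cytosine methyltransferase of large subunit RNA, had 326 and 388 in TG mice, against 211 and 304 in WT mice (0.46 ± 0.24), and its difference was 0.21 without the replicate 1 WT mouse. Pes1 had the smallest difference of the role, with 265 and 282 in TG mice, against 231 and 325 in WT mice (-0.0021 ± 0.20), and it was 0.19 and -0.19 within the replicates. Pes1 forms the PeBoW complex with Bop1 and Wdr12, which had differences of 0.30 ± 0.19 and 0.30 ± 0.26 without overlap between the groups.

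Rrs1 and Utp4 are given with their signals at 12 months outside the rule for named genes, and were chosen after their values were seen. Rrs1, which brings the small ribonucleoprotein of the large subunit into the particle, showed how far the replicate number matters for a single gene. It had 726 and 390.3 in TG mice, against 458 and 281 in WT mice at 12 months. At 2 months it had 570.1 and 334 in TG mice, against 609 and 393 in WT mice. In all 4 groups the replicate 1 mouse was the higher one. The difference at 12 months was 0.55 ± 0.40 without the block and 0.55 ± 0.12 with it, and 0.65 and 0.45 within the replicates. The other large subunit factors had log2 differences of 0.39 for the helicase Ddx18, 0.32 for Nip7, 0.21 for Noc3l, 0.17 for the nucleolar GTPase Gnl3, 0.15 for Ebna1bp2, 0.11 for Noc2l and 0.08 for Ppan. All 7 were positive, and those of Noc2l and Ppan came from overlapping groups.

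Several probe sets were on hand for many of the genes. The 45 genes had 95 probe sets, of which 87 passed the filter, and 31 genes had more than 1 that passed. Besides the probe sets that stood for the genes, 42 others passed, and 35 of these 42 were also higher in the TG spleens of 12 months (median 0.35). For 9 genes (Ddx10, Ddx18, Heatr1, Imp4, Ncl, Noc3l, Noc4l, Nolc1 and Pes1) the probe sets disagreed in sign. In Nolc1 the other probe sets gave 0.74 and -0.16 beside the 0.55 above. In Ncl they gave 0.75, 0.35 and -0.08, and in Ddx18 0.36 and -0.37. The gene values above are those of the brightest probe set, so these 9 genes are less certain. At 2 months, where differences were smaller, 25 of the 42 other probe sets were higher in TG mice, and the probe sets of 19 of the 31 genes disagreed in sign.

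Other genes of ribosome biogenesis, 94 tested of 99 listed, had a smaller median difference of the same sign. Of the 94, 73 were higher in TG mice of 12 months, beside 45.2% of all genes, the median difference was 0.16, and 32 lay above without overlap, beside the 14.3% of all genes. None passed (limma, with 0.586 as the smallest adjusted p), and 5 reached an unadjusted p under 0.05, all higher in TG mice, beside 2.59% of all genes. At 2 months 56 of the 94 were higher, close to the 52.5% of all genes, with a median of 0.02, against 0.01 over all genes. The 3 with the largest moderated t in either direction are named here. Utp6, a processome protein, had 365 and 313 in TG mice, against 213 and 182 in WT mice (0.73 ± 0.19), and Nsa2, of the large subunit, had 1290.5 and 1367 in TG mice, against 703 and 889 in WT mice (0.74 ± 0.19). Rsl1d1, a nucleolar protein, had 529 and 408 in TG mice, against 315 and 242 in WT mice (0.72 ± 0.25). All 3 were separate between the groups. On the lower side were Taf1a, a subunit of the selectivity factor of RNA polymerase I, with 71.7 and 104 in TG mice, against 102 and 136 in WT mice (-0.39 ± 0.25), Tsr2 (-0.32 ± 0.23) and Urb1 (-0.34 ± 0.27).

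Other properties of the arrays moved with this result. The mean log2 value of the 45 genes, less that of all genes tested, was 0.72 and 0.67 on the TG arrays of 12 months, against 0.33 and 0.41 on the WT arrays. The summed signal of 15 proliferation markers, such as Mki67 and the Mcm genes, was 20981 and 18121 in TG mice, against 14312 and 14548 in WT mice, with 15 of 15 higher. The T cell markers, 5 of 5 higher, summed to 5624 and 3099 in TG mice, against 2284 and 2838 in WT mice. The B cell markers, 0 of 5 higher, summed to 10567 and 19151 in TG mice, against 14290.0 and 20025 in WT mice. Macrophage markers, 1 of 5 higher, summed to 8509 and 11418 in TG mice, against 15177 and 14678 in WT mice. Proliferation, T cell and macrophage sums were each separate between the groups, and B cell sums overlapped. Of the T cell markers, Cd3d, Cd3e and Cd3g each overlapped between the groups. Within replicate 2, Cd3d (887 against 1061) and Cd3e (287 against 430) were lower in the TG mouse. Cd3g (537 against 413) was higher there. Neutrophil markers, 7 of 7 higher, summed to 9205 and 20818 in TG mice, against 10025 and 5696 in WT mice, with overlap. No marker was at 0 on any array. As a sign of RNA quality, the 3'/5' signal ratio of the Gapdh control probe sets was 0.843 and 1.21 in TG mice, against 1.25 and 1.73 in WT mice. That of the beta-actin control was 1.20 and 1.10 in TG mice, against 1.48 and 1.31 in WT mice. Both ratios were separate between the groups of 12 months, lower in TG mice. The part of cell makeup, proliferation and RNA quality in the differences of the ribosome biogenesis genes was not tested.

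**Figure D4:**
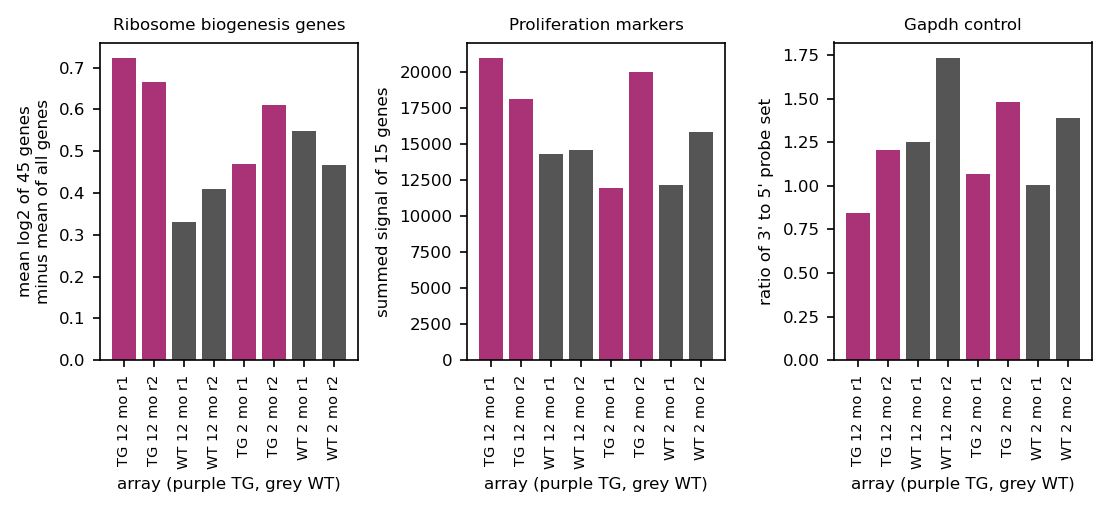
Bars give, for each of the 8 arrays, the mean log2 value of the 45 genes minus the mean of all genes tested (left), the summed linear signal of 15 proliferation markers (middle) and the 3'/5' signal ratio of the Gapdh control probe sets (right), purple for TG and grey for WT. The TG arrays of 12 months stand highest on the left, and the TG array of 2 months, replicate 2, comes next there and is high in the middle panel.

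At 2 months, before tumours, the differences between TG and WT mice lay nearer to 0. Of the 45 genes 31 were higher in TG mice, as were 52.5% of all genes, with a median log2 difference of 0.07, against 0.01 over all genes. The median was -0.01 within replicate 1 and 0.16 within replicate 2. With the replicate 2 TG mouse of 2 months left out, 20 of 45 were higher and the median was -0.01. With the replicate 1 WT mouse left out, which had the pancreas markers, 30 were higher and the median was 0.0865. The replicate 2 TG mouse also had the higher proliferation sum of its group, at 11960.0 and 20004 in TG mice, against 12115 and 15798 in WT mice. Neutrophil markers had a like split by replicate, with sums of 7565 and 24631 in TG mice, against 6319 and 20486 in WT mice.

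By limma 0 of the 45 genes passed at 2 months, with a smallest adjusted p of 1.00 to 3 digits, and 0% of all genes did. An unadjusted p under 0.05 was reached by 0 of the 45, beside 0.295% of all genes on the higher and 0.0983% on the lower side, and with the block again by 0, beside 0.992% and 0.697%. Of the 45, 7 were higher and 1 was lower without overlap, beside 10.1% and 7.83% of all genes. Bysl, a small subunit factor, had 177 and 254 in TG mice, against 169.9 and 170.4 in WT mice (0.29 ± 0.21), and stood at 0.0522 without the replicate 2 TG mouse and 0.54 without the replicate 1 TG mouse. Imp4 had 342 and 378 in TG mice, against 277 and 329 in WT mice (0.24 ± 0.23), and Wdr43 had 466 and 458 in TG mice, against 449 and 372 in WT mice (0.17 ± 0.17). These 3 had the largest moderated t among genes higher in TG mice, and their groups did not overlap. Imp4 stood at 0.12 and Wdr43 at 0.30 without the replicate 1 WT mouse, and Wdr43 at 0.0402 without the replicate 2 WT mouse. The other probe set of Wdr43, nearly as bright, gave -0.12, with 426 and 399 in TG mice, against 468 and 429 in WT mice, lower in TG mice without overlap. Pes1 had 237 and 264 in TG mice, against 282 and 303 in WT mice (-0.21 ± 0.20), the 1 gene that was lower without overlap. Ddx18 had 441 and 398 in TG mice, against 486 and 429 in WT mice (-0.12 ± 0.20), and Utp4 had 275 and 335 in TG mice, against 360.2 and 296 in WT mice (-0.10 ± 0.19). Their groups overlapped. Without the replicate 1 WT mouse Ddx18 stood at -0.0341, and Utp4 turned to 0.0374, as it did to 0.0371 without the replicate 1 TG mouse. Within replicate 1 and replicate 2 the difference of Utp4 was -0.37 and 0.17.

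The effects at the 2 ages share no array, and the difference between them was tested directly. It was positive for 38 of the 45 genes, against 43.7% of all genes, with a median of 0.21, against -0.05 over all genes. Within replicate 1 the median was 0.37 with 40 of 45 positive, and within replicate 2 it was 0.13 with 28 of 45 positive. No gene passed (limma, smallest adjusted p = 1.00 to 3 digits), and 0% of all genes passed. Nop16 (log2 difference of the differences 0.65 ± 0.24) and Polr1b (0.75 ± 0.30) had an unadjusted p under 0.05, a level that 0.518% of all genes reached with a positive sign. With the replicate block 7 of 45 reached it, and 2.6% of all genes. These p-values include the replicate 1 WT mouse of 2 months, which had the pancreas markers. Without that mouse Nop16 stood at 0.62 and Polr1b at 0.62. Ddx18 followed by moderated t with 0.51 ± 0.28, its sign being positive at 12 and negative at 2 months. The largest value was that of Nop58, at 1.03 ± 0.61 without the block and 1.03 ± 0.27 with it. It was 1.48 within replicate 1 and 0.57 within replicate 2, and its adjusted p with the block was 0.598 (limma). With the replicate 1 WT mouse of 2 months left out, the median was 0.20, and 38 of 45 were again positive. At the low end were Imp3 (-0.18 ± 0.31), Ddx10 (-0.18 ± 0.33) and Utp4 (-0.08 ± 0.27), none of which differed by more than its SE. Without the replicate 1 WT mouse of 2 months they stood at -0.0857, -0.29 and -0.21.

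**Figure D5:**
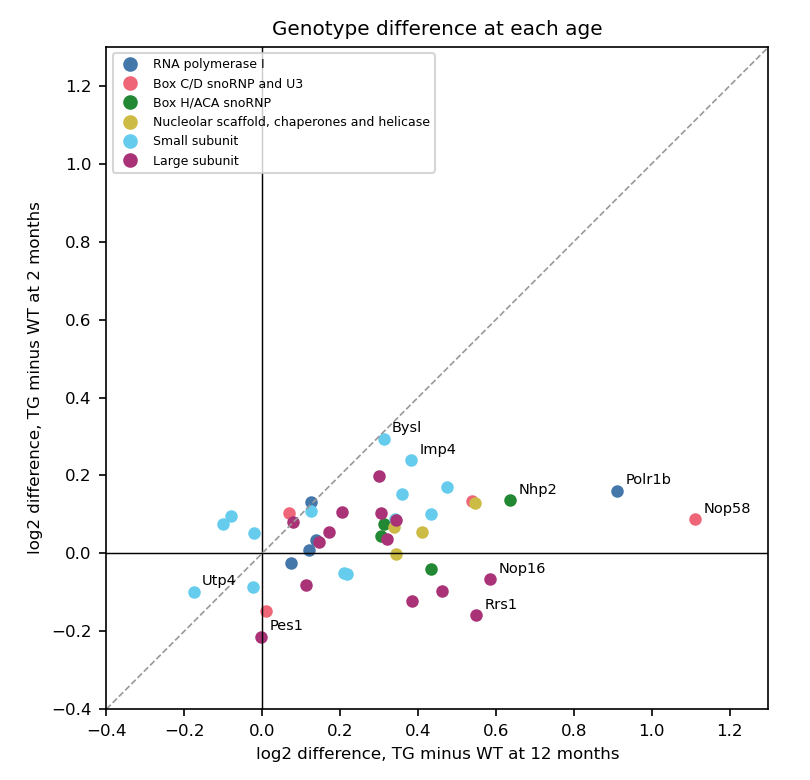
Each point is 1 of the 45 genes, with the log2 difference TG minus WT at 12 months on the x axis and at 2 months on the y axis, coloured by role, and the dashed line marks equal differences. Of the 45 points 39 lie right of 0 and 38 below the line, with Polr1b at 0.91 and 0.16 and Nop58 at 1.11 and 0.09.

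Age was compared within each genotype. These comparisons share the arrays of 12 months with the comparison of TG and WT mice at that age, so their values are given side by side and are not further evidence for it. In TG mice 31 of the 45 genes were higher at 12 than at 2 months, against 43.7% of all genes, with a median of 0.11, against -0.04 over all genes. The median in TG mice was 0.21 within replicate 1 and 0.03 within replicate 2, with 33 and 25 of 45 higher. In WT mice 8 of the 45 were higher, against 51.4% of all genes, with a median of -0.11, against 0.01 over all genes. The median in WT mice was -0.18 within replicate 1 and -0.05 within replicate 2, with 9 and 20 of 45 higher. Of the 45 genes, 20 were lower within both, as were 2939 of the 11189 genes tested. The mean of the 45 genes less that of all genes was 0.47 and 0.61 in TG mice and 0.55 and 0.47 in WT mice of 2 months. All 4 values of 2 months lay between those of the WT and the TG arrays of 12 months. Of the 45 genes, 16 and 10 had their highest signal on the replicate 1 and replicate 2 TG arrays of 12 months, and 18 and 10 had their lowest on the replicate 1 and replicate 2 WT arrays of 12 months. Such counts per array were not made over all genes, so they do not show what is particular to the list.

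In TG mice no ribosome biogenesis gene passed the test of age (limma, smallest adjusted p = 1.00 to 3 digits), beside 0.00894% of all genes, which was Gzma alone, a granzyme of cytotoxic lymphocytes that was lower at 12 months. With the block 0 of 45 passed, beside 0.188% of all genes. An unadjusted p under 0.05 was reached by 2 of 45, both higher at 12 months, beside 1.61% of all genes in that direction, and with the block by 8, beside 4.51%. Nop16 had 276 and 253 at 12 months, against 193 and 183 at 2 months (0.46 ± 0.17), and Polr1b had 249 and 236 at 12 months, against 143 and 182 at 2 months (0.54 ± 0.21). Rrp1b had 275 and 257 at 12 months, against 216 and 202 at 2 months (0.33 ± 0.17). All 3 were separate between the ages, as were 13 of 45 on the higher side, beside 10.3% of all genes, and 2 (Polr1c and Nob1) on the lower side, beside 17.4%. On the lower side Imp3 had 626 and 841 at 12 months, against 807 and 911 at 2 months (-0.24 ± 0.22). Polr1c had 408 and 398 at 12 months, against 477 and 421 at 2 months (-0.15 ± 0.17). The other probe set of Polr1c was higher at 12 months without overlap, with 371 and 530, against 331 and 332 at 2 months. Rrp9 had 29.0 and 61.7 at 12 months, against 43.4 and 74.8 at 2 months (-0.31 ± 0.41). Imp3 and Rrp9 overlapped between the ages. With the replicate 1 TG mouse of 2 months left out, the list had a median of 0.02 and 25 of 45 higher.

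In WT mice no ribosome biogenesis gene passed either (limma, smallest adjusted p = 1.00), and 0% of all genes did. None had an unadjusted p under 0.05, beside 0.947% of all genes on the higher and 0.581% on the lower side, and with the block 5 did, all lower at 12 months, beside 2.4%. Without overlap, 10 of 45 were lower and 3 higher at 12 months, beside 10.9% and 12.7% of all genes. Nob1 had 172 and 166 at 12 months, against 272 and 188 at 2 months (-0.39 ± 0.21), Ddx18 had 415 and 335 at 12 months, against 486 and 429 at 2 months (-0.28 ± 0.20) and Rrp12 had 37.8 and 53.8 at 12 months, against 60.4 and 58.2 at 2 months (-0.30 ± 0.24). All 3 were lower at 12 months without overlap. A dim probe set of Ddx18 was higher without overlap, with 71.5 and 84.4 at 12 months, against 69.3 and 66.4 at 2 months. The remaining probe set of Ddx18 was lower, with overlap. Nob1 stood at -0.14 with the replicate 1 WT mouse of 2 months left out and -0.64 with the replicate 2 WT mouse of that age left out. Ddx18 stood at -0.13 with the replicate 2 WT mouse of 12 months left out, and Rrp12 at -0.11 with its replicate 1 counterpart left out. Bysl, with 211 and 182 at 12 months, against 169.9 and 170.4 at 2 months (0.19 ± 0.21), Polr1d, with 1355 and 1476 at 12 months, against 1267 and 1327 at 2 months (0.12 ± 0.16), and Rrp1b (0.07 ± 0.17) were the leading genes in the other direction. These were the 3 that were higher without overlap. A dimmer probe set of Polr1d was lower at 12 months without overlap, with 328 and 406, against 409 and 477 at 2 months. The other probe set of Bysl was also lower without overlap, with 118.5 and 114, against 148 and 118.7 at 2 months. The count of higher genes was 15 of 45 with the replicate 1 WT mouse of 12 months left out and 14 with the replicate 2 WT mouse of 2 months left out. Leaving out the replicate 1 WT mouse of 2 months gave 12, and a median of -0.10.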

How the data were processed

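Total RNA of spleen cells was hybridised to Affymetrix arrays, 1 array per mouse, 8 in all. The deposited values are intensities, probe set signals on a linear scale, made with GCOS 1.4 and MAS5 per the submitters' processing notes. In the values, every array had a trimmed mean of 150.001, so each was scaled by 1 factor, which leaves differences in signal distribution between arrays in place. Symbols came from the probe annotation given, updated through gene identifiers.

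Values were taken as log2(signal + 16). Of 45101 probe sets, 64 controls were left out, those with a mean under the median (a signal of 45.3) were dropped, and each of 11189 genes was read from its brightest probe set. The 4 group means were fitted with limma 3.58.1 in R 4.3.3 (lmFit, eBayes with trend, 4 residual degrees of freedom, no block), with p-values adjusted by Benjamini-Hochberg and a threshold of 0.05. As a check of the code, the fit was run on simulated data with independent noise and no replicate effect. The planted changes were larger than any difference of the members, so the check does not bear on differences of their size. The 5 comparisons were TG with WT at either age, their difference, and age within either genotype. The difference between replicate 1 and replicate 2 was correlated across genes for each of the 6 pairings of groups (r from 0.464 to 0.654), so the numbers were taken as pairing the samples, and a fit with the replicate block was set beside the first. The labels call the mice biologic replicates. The members and lists were chosen with earlier results of these data known. All members may be named with their difference. Signals on every array are given for the 3 members of each role with the largest and the 1 with the smallest absolute moderated t at 12 months, and elsewhere for 3 in either direction. Rrs1 and Utp4 at 12 months are exceptions, chosen after their values were seen. Genes tracking the list mean are given under other observations.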

Additional observations from a re-analysis of the deposited data

How the results depend on the processing

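The fit was repeated under 15 alternatives: the replicate block, each of the 8 arrays left out, a pseudocount of 1 or 64, no filter or a stricter filter on dim probe sets, the mean of the probe sets of a gene, and quantile normalization. No ribosome biogenesis gene passed the test in any comparison under any of them. With the replicate block the number of all genes past the test was 5 for TG with WT at 12 months (0 without it) and 21 for age in TG mice (1 without it), and the block moved no other count of genes past the test. With a pseudocount of 1, 0 passed for age in TG mice. With 1 array left out these counts ran from 0 to 7 for TG with WT at 12 months, 0 to 2 at 2 months, 0 to 4 for age in TG mice and 0 to 4 for age in WT mice. The highest counts came without replicate 2 of the TG mice of 12 months (TG with WT at 12 months and age in TG mice) and without replicate 2 of the WT mice of 2 months (the other two). The group left with 1 array was assumed to vary like the others. With 1 array left out the median over the list ran from 0.22 to 0.31 at 12 months, -0.0145 to 0.13 at 2 months, 0.0202 to 0.16 for age in TG mice, -0.17 to -0.0724 for age in WT mice and 0.16 to 0.27 for the difference between the ages. The number of higher genes ran from 36 to 41 at 12 months, 20 to 34 at 2 months, 25 to 34 for age in TG mice, 8 to 15 for age in WT mice and 32 to 42 for the difference between the ages. At 12 months the number above without overlap was 26 to 28 under the settings that keep all 8 arrays. This count, added after seeing the data, was 3 at 2 months and 0 for age in WT mice with the mean of the probe sets of a gene, against 7 and 3 with the brightest one. Single genes turned in sign, all of them with a difference that missed the test. With 1 array left out, at 12 months the range was -0.0497 to 0.20 for Polr1e, -0.0505 to 0.92 for Dkc1, -0.23 to 0.23 for Pes1, -0.38 to 0.40 for Rrp9, -0.12 to 0.26 for Fbl and -0.22 to 0.18 for Utp20. It was -0.23 to 0.0374 for Utp4 at 2 months, and for the difference between the ages -0.39 to 0.0387 for Imp3, -0.44 to 0.0889 for Ddx10 and -0.21 to 0.059 for Utp4. For age in TG mice it was -0.71 to 0.0809 for Rrp9. With a pseudocount of 1 the difference of Rrp9 at 12 months was -0.00948. With quantile normalization Utp20 stood at 0.00917 and Pes1 at 0.0209 at 12 months. With the mean of the probe sets of a gene Pes1 stood at 0.0614 at 12 and 0.0342 at 2 months, Polr1c at 0.13 for age in TG mice, and Polr1d at -0.12 and Rrp1b at -0.0282 for age in WT mice. The cause was not tested in any of these cases. The 2 arrays of each group limit what a test of a single gene can show.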

Other observations

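Outside the list and the other ribosome biogenesis genes, the 5 genes whose log2 values followed the mean of the 45 genes most closely over the 8 arrays were Psma5, a proteasome subunit (r = 0.971), Mrpl13, a mitochondrial ribosomal protein (r = 0.961), Nr2c2ap (r = 0.952), Ndufv2, a subunit of respiratory complex I (r = 0.949), and Ahcy, the enzyme that clears adenosylhomocysteine (r = 0.940). These values are a description over 8 arrays that share groups and replicates, and the genes were picked as the best of all genes tested. Signals at 12 months were 1695 and 1705 in TG mice, against 1304 and 1389 in WT mice for Psma5 and 875 and 876 in TG mice, against 598 and 635 in WT mice for Mrpl13. Among the 45 genes themselves, Gar1 followed the mean of the other members most closely (r = 0.975), and Utp4 had the lowest value (r = -0.29).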
